A study of Mus musculus with 16 samples.

Results

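The 39 genes described here encode the enzymes and regulators of fatty acid oxidation, activation, binding, storage and synthesis, with the PPAR receptors and their coactivators. They were chosen by name as a list of lipid metabolism genes, out of 55604 genes counted per library, and all 39 were found and had enough counts to be tested. They comprise 18 genes of mitochondrial oxidation, 3 of peroxisomal oxidation, 4 acyl-CoA synthetases, 2 fatty acid binding proteins, 5 PPAR receptors and coactivators, 3 genes of storage and lipolysis and 4 of fatty acid synthesis. The last 2 groups, 7 genes in all, were kept apart from mitochondrial oxidation. They hold both the making and storing of fat and its release, since Pnpla2 and Lipe are lipases.

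RNA came from 2 sorted subsets, Tim-4+ TAMs and Tim-4- TAMs, which are the tumor-associated macrophages of the peritoneal cavity that do or do not carry Tim-4, a phosphatidylserine receptor encoded by Timd4. Both subsets came from C57BL/6 mice, 6 to 8 weeks old at the start, that had carried peritoneal tumors of the ID8 mouse ovarian cancer line for 6 to 7 weeks. Neither subset had a further treatment, and no tumor-free macrophages were sequenced, so the comparison was between 2 subsets under the same tumor. Tim-4+ cells were taken with beads against Tim-4, and Tim-4- TAMs were taken with beads against F4/80 from the cells left over. Each subset was represented by 4 libraries that share the pair numbers 793, 784, 783 and 779, and values below are given in that order of pairs. The labels do not say whether a number stands for 1 mouse or for a pool of mice. The p-values therefore measure the spread between these libraries.

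Totals on genes were 53527928 to 57768202 counts in the Tim-4+ libraries and 55618306 to 69594245 in the Tim-4- libraries, and a count of 3, taken as the floor, was worth 0.0431 to 0.0560 CPM by library total (CPM is the count scaled to library size, with TMM factors in all other values). Timd4 itself stood at 524 to 1743 CPM in the Tim-4+ libraries and at 1.96 to 84.9 CPM in the Tim-4- libraries, without overlap. Of 8 general macrophage markers 5 were higher and 1 lower in Tim-4+ TAMs. All 8 markers of resident peritoneal macrophages were higher in them, but these include Timd4, on which the cells were sorted. Of 7 markers of monocyte-derived macrophages 6 were lower. All 11 markers of mesothelium and ovarian epithelium were lower in Tim-4+ TAMs, with a summed level of 116 to 417 CPM against 470 to 2220 CPM in Tim-4- TAMs. Of 8 proliferation markers 4 were lower, at 235 to 419 against 415 to 472 CPM in sum. In bulk RNA, fewer cells of a type and less RNA per cell cannot be told apart.

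Fatty acids that enter a macrophage are first joined to coenzyme A by the acyl-CoA synthetases and carried by the binding proteins. They are then either moved into mitochondria by the carnitine shuttle and broken down in cycles of dehydrogenation, hydration, a further dehydrogenation and thiolysis, or esterified and kept in lipid droplets, from which lipases release them. The PPARs are nuclear receptors that bind fatty acids, pair with a retinoid X receptor (RXR) and switch on many genes of both routes. PPARγ is well known in alveolar and lipid-laden macrophages, and oxidation of fatty acids is a known fuel of alternatively activated macrophages.

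A gene was called higher or lower at an adjusted p under 0.05 in edgeR's quasi-likelihood test with the pair as a block, adjusted over the 16861 genes tested. By that rule 6 of the 39 members were higher in Tim-4+ TAMs, where 8.97% of all genes tested were, and 2 were lower, where 8.43% of all genes were. The members higher in Tim-4+ TAMs were Fabp4, Acaca, Eci2, Fabp5, Pnpla2 and Ppard, and the members lower in them were Scd1 and Acads. Either call was made for 17.4% of all genes tested, against 8 of 39 members, so that the members were called at about the rate of other genes. Of the called members, only Fabp4 differed by at least 2-fold, a call and size reached by 9.59% of all genes (3.8% higher and 5.79% lower). The median log2 difference (Tim-4+ minus Tim-4-) was -0.08 over the 39 members and -0.00118 over all genes. In 4 members the ranges of the subsets did not overlap, where 12.8% of all genes showed no overlap (6.84% higher and 5.92% lower). They were Eci2, Ppard and Acaca, higher, and Acadvl, lower, which missed the call. The direction was the same in the 4 pairs for 17 members, 9 higher and 8 lower, and for 42.6% of all genes, 22.4% higher and 20.2% lower.

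**Figure D1:**
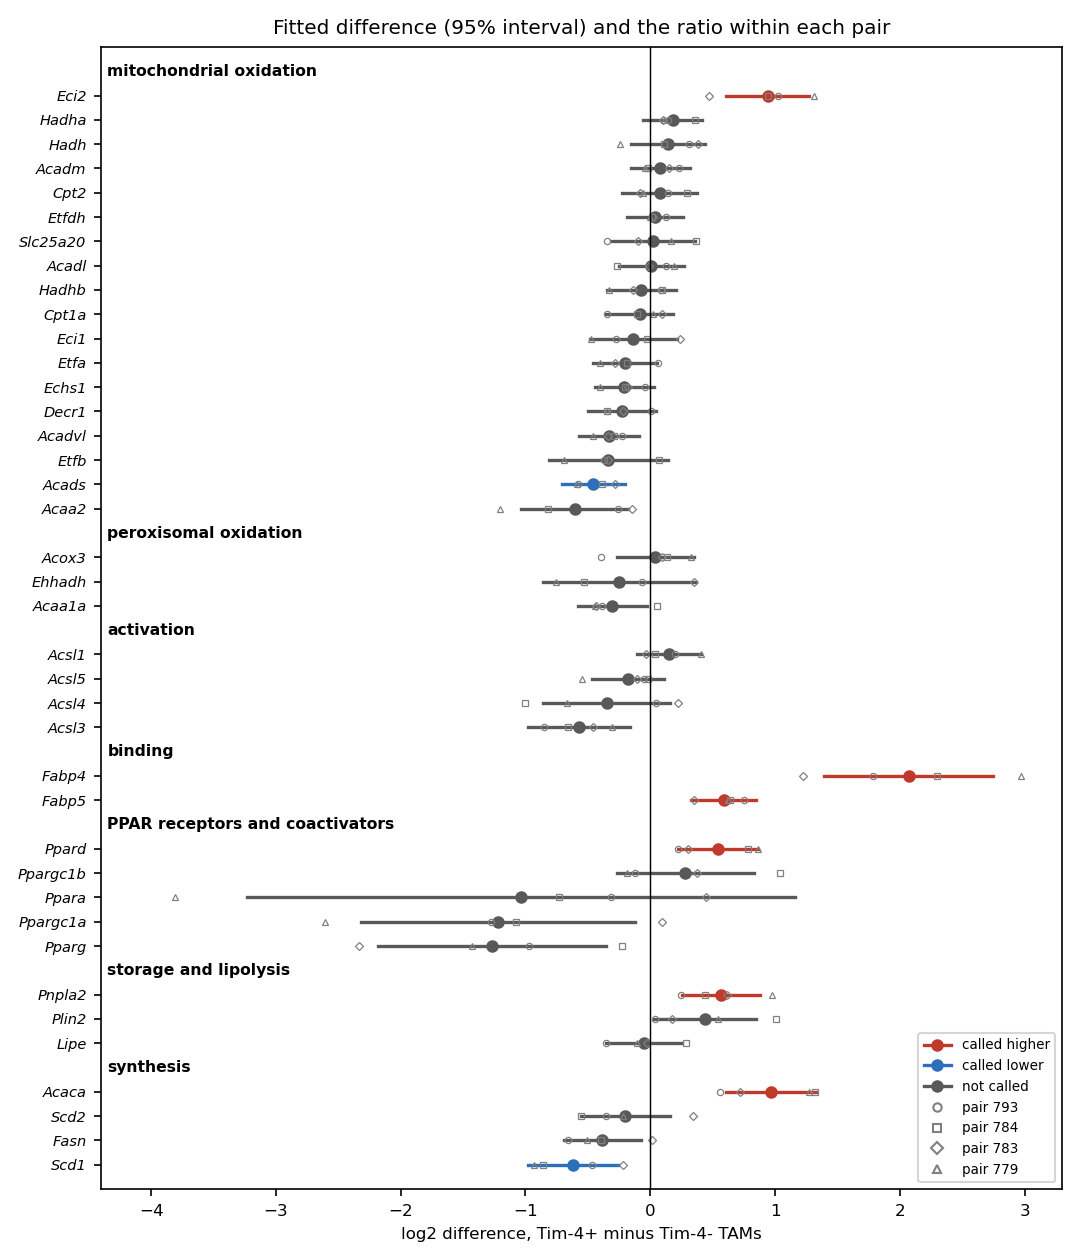
Fitted log2 difference (filled points, Tim-4+ minus Tim-4- TAMs) with its 95% interval for the 39 members by role, and the log2 ratio of CPM within each of the 4 pairs (open symbols). Most mitochondrial oxidation genes lie near 0, and Fabp4 lies farthest to the right. Scaling by total counts, which is not drawn here, lowered the differences and turned the sign of 10 members that were not called.

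The difference between the subsets was not of 1 size in the pairs. Among the 8 called members it was smallest in pair 783 for 5 and in pair 793 for 3. Over all called genes it was smallest in pair 783 for 54.9% and in pair 793 for 31.4%. Timd4 differed least in the same pairs, with log2 ratios of 3.77 in pair 793 and 4.56 in pair 783 against 7.29 in pair 784 and 9.19 in pair 779. The Tim-4+ library of pair 783 also had the lowest sum of resident markers among Tim-4+ libraries, 2960 against 6700 to 8690 CPM, and the highest sum of mesothelial and epithelial markers, 417 against 116 to 249 CPM. The resident sum includes Timd4 itself, at 524 against 1160 to 1743 CPM in the same libraries. The part of these differences between libraries in the members' values was not tested.

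Promoters are shown for 4 called members and for Plin2, the most abundant member per kilobase of annotated exon. They give the sequence at a RefSeq start site, which need not be the outermost start of the gene. The windows are from RefSeq on GRCm38.p6 and run from 250 bases before to 50 bases after a start site, read 5′ to 3′ on the gene's strand. They were found for 32 of the 39 members (36 windows). Capitals mark matches, on either strand, to 5 motifs: a PPAR response element (AGGTCA repeated after a gap of 1 base), its half-site AGGTCA alone, an SREBP element (TCACNCCAC), an E-box (CACGTG) and an NRF2 element (TGACNNNGC).
Eci2, chr13:34994095-34994394, minus strand: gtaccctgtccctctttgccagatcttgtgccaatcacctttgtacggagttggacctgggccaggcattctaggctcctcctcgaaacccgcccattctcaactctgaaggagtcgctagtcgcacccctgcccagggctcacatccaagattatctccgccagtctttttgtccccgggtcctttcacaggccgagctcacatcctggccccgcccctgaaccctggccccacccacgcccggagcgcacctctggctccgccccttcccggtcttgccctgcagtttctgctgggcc
Acads, chr5:115119297-115119596, minus strand: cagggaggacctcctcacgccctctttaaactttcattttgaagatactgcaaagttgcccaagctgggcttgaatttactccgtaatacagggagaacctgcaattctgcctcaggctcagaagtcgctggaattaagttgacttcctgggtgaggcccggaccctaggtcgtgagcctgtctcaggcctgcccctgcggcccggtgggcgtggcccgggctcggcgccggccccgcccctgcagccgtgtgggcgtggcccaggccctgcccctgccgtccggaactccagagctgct
Ppard, chr17:28232504-28232803, plus strand: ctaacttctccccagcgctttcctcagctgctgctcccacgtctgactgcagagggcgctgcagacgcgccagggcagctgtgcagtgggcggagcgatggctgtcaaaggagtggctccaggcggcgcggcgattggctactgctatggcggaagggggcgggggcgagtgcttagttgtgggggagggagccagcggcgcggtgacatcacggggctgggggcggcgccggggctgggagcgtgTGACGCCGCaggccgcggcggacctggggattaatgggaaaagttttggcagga
Pnpla2, chr7:141454938-141455237, plus strand: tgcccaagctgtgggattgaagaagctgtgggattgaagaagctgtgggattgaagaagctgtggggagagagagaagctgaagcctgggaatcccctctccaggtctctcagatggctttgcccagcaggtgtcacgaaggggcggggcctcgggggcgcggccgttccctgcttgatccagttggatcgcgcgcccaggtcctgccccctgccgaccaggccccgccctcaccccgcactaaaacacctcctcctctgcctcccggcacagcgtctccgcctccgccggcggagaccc
Plin2, chr4:86670010-86670309, minus strand: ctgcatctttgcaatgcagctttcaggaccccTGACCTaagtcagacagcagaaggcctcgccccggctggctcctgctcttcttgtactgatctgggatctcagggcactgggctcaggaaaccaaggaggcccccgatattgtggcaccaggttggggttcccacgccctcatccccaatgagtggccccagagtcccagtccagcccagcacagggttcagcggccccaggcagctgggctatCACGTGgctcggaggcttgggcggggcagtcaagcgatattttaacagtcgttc

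Of these 5 windows, that of Plin2 held a half-site and an E-box, that of Ppard held an NRF2 element, and those of Eci2, Acads and Pnpla2 held none of the 5 motifs. The full PPAR element was in 0 of the 36 member windows and in 0.0396% of all promoter windows. The half-site was in 7 member windows, from Acadm, Acadvl, Cpt1a, Echs1, Plin2 and both windows of Pparg, where 16.3% of all windows held it. The half-site is also part of the full element. The SREBP element was in the windows of Acsl1 and Ehhadh (1.24% of all windows), the E-box in those of Lipe and Plin2 (7.15%), and the NRF2 element in those of Ehhadh, Ppard and Pparg (12.4%). The window of Acaca lay inside the gene as GENCODE draws it and held none. The printed window of Eci2 also lay inside its gene, which GENCODE places at 34977748 to 35027096 on the minus strand. So did the windows of Acsl1, Cpt1a and Lipe and the downstream window of Pparg. Fabp4, Fabp5, Scd1, Scd2, Decr1, Acaa2 and Ppargc1b had no entry. A match is a run of letters and not a bound site.

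Mitochondrial oxidation showed 1 gene higher and 1 lower among 18. Its median log2 difference was -0.08, with 8 genes above 0 and 10 below, and all but Eci2 lay between -0.61 and 0.18. The carnitine shuttle, which admits long-chain acyl groups to the mitochondrion, did not differ beyond its spread. Cpt1a, the outer-membrane transferase and the regulated step of the shuttle, stood at 207, 110.3, 194 and 148 CPM in the Tim-4+ libraries and at 263, 119, 182 and 146 CPM in the Tim-4- libraries. Both subsets were lowest in pair 784, and the pairs differed more than the subsets did (log2 difference -0.08, 95% interval -0.35 to 0.18, adjusted p = 0.661). Cpt2, the inner-membrane transferase, was at 14.99 to 19.2 CPM in the Tim-4+ libraries and at 14.1 to 20.3 CPM in the Tim-4- libraries. Slc25a20, the translocase between both transferases, was at 16.3 to 23.4 and 17.4 to 25.5 CPM. For these 3 genes the intervals of the difference ran from -0.35 to 0.37, so that a change of 2-fold lies outside them.

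The acyl-CoA dehydrogenases take the first step of each cycle, and each prefers a chain length. Acads, the short-chain enzyme, was lower in Tim-4+ TAMs in each pair. It stood at 29.3, 20.5, 30.4 and 30.1 CPM in the Tim-4+ libraries and at 43.8, 26.7, 37.0 and 45.2 CPM in the Tim-4- libraries. Pair 784 was low in both subsets, so the ranges overlapped although the direction was the same in the 4 pairs (log2 difference -0.46 ± 0.11 (SE), adjusted p = 0.0285). The call was lost without pair 793, 784 or 779, at adjusted p = 0.0907 to 0.116, and without the block, at adjusted p = 0.231.

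Acadvl, the very-long-chain enzyme of the inner membrane, stood at 25.9, 23.98, 27.5 and 28.4 CPM in the Tim-4+ libraries and at 30.4, 29.4, 34.8 and 38.9 CPM in the Tim-4- libraries. Every Tim-4- library was above every Tim-4+ library, and the difference was -0.33 on the log2 scale (95% interval -0.57 to -0.09), at adjusted p = 0.0659. Of 14 alternative settings 3 called it. DESeq2 with the block gave adjusted p = 0.0336, lane 2 alone 0.0402 and total-count scaling 0.0121. It was not called with lane 1 alone (0.133), without the block (0.226) or without any 1 pair. Its exons share 42.9% of their bases with Dvl2 on the opposite strand, and whether the counting used strand is not given in the sources used here. Acadl, the long-chain enzyme, was at 61.4 to 100.3 CPM in the Tim-4+ libraries and 62.3 to 87.9 CPM in the Tim-4- libraries, with its highest library in pair 779 in each subset. Acadm, the medium-chain enzyme, was at 32.1 to 50.1 and 32.5 to 46.8 CPM, lowest in pair 784 in each subset. Their log2 differences were 0.01 and 0.08, with adjusted p of 0.963 and 0.625.

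The hydratases, hydroxyacyl-CoA dehydrogenases and thiolases finish the cycle. Hadha and Hadhb encode the 2 chains of the trifunctional protein. Hadha was at 138, 147, 115 and 133 CPM in the Tim-4+ libraries and 124, 115, 107 and 123 CPM in the Tim-4- libraries, above its partner library in the 4 pairs by little (log2 difference 0.18, adjusted p = 0.259). Hadhb was at 27.8 to 30.8 and 28.8 to 34.9 CPM, without a common direction. The chains of this complex had log2 differences of 0.18 and -0.07, and neither was called. Hadh, the short-chain hydroxyacyl-CoA dehydrogenase, was at 29.0 to 58.7 and 26.8 to 51.1 CPM, and Echs1, the short-chain hydratase, at 52.4 to 79.7 and 60.2 to 90.4 CPM. Echs1 was lower in Tim-4+ TAMs in each pair but missed the call (log2 difference -0.21, adjusted p = 0.200).

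Acaa2, the mitochondrial thiolase, had the largest fitted fall of the mitochondrial genes without being called. It stood at 53.3, 33.1, 46.3 and 39.5 CPM in the Tim-4+ libraries and at 63.8, 58.3, 51.3 and 90.9 CPM in the Tim-4- libraries. The difference was wide in pairs 784 and 779 and narrow in pairs 793 and 783 (log2 difference -0.61, 95% interval -1.04 to -0.18, adjusted p = 0.0608). It was called in 4 of 14 alternative settings. Among them were the fit without pair 783, at -0.77 and adjusted p = 0.0126, and DESeq2 with the block, at adjusted p = 0.0227.

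Unsaturated fatty acids enter the cycle as saturated ones do, and isomerases and a reductase act within it when a double bond is reached. Eci2, an enoyl-CoA isomerase of peroxisomes and mitochondria, was the mitochondrial oxidation gene that was higher in Tim-4+ TAMs. It stood at 60.7, 62.7, 39.7 and 86.5 CPM in the Tim-4+ libraries and at 29.8, 32.5, 28.6 and 34.7 CPM in the Tim-4- libraries. The subsets did not overlap, the Tim-4- libraries lay close together, and the lowest Tim-4+ library was that of pair 783 (1.92-fold, log2 difference 0.94 ± 0.14 (SE), adjusted p = 0.00891). Without pair 784 it was 0.94 at adjusted p = 0.0678, and without the block adjusted p was 0.0546. Eci1, the mitochondrial isomerase of the same family, was at 14.2 to 17.5 CPM in the Tim-4+ libraries and 14.9 to 19.8 CPM in the Tim-4- libraries (log2 difference -0.14, adjusted p = 0.573). Decr1, the dienoyl-CoA reductase, was at 18.2 to 27.1 and 23.1 to 31.5 CPM (log2 difference -0.23, adjusted p = 0.215).

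Electrons from the first step pass through the electron transfer flavoprotein, encoded by Etfa and Etfb, to its dehydrogenase Etfdh and on to the respiratory chain. Etfa was at 37.8 to 44.9 CPM in the Tim-4+ libraries and 43.2 to 51.7 CPM in the Tim-4- libraries, and Etfdh at 33.2 to 42.7 and 32.8 to 42.7 CPM. Etfb was scarce, at 3.86 to 5.24 and 4.89 to 6.63 CPM. It shares 53.0% of its exon bases with Gm45233 on the same strand, so its level is uncertain. None of the 3 was called, with log2 differences of -0.20, 0.04 and -0.33 for Etfa, Etfdh and Etfb.

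Of the 3 peroxisomal oxidation genes 0 were called by edgeR or by DESeq2 with the block, and 1 was lower at an unadjusted p under 0.05. Acaa1a, the peroxisomal thiolase, was at 42.8, 47.2, 42.0 and 44.3 CPM in the Tim-4+ libraries and at 56.1, 45.5, 56.9 and 60.2 CPM in the Tim-4- libraries (log2 difference -0.30, adjusted p = 0.116). It was lower in Tim-4+ TAMs in 3 pairs and about level in pair 784, and 17.1% of its 50-base windows also occur in another gene, with Acaa1b sharing more of them than any other. Acox3, an oxidase of branched-chain acyl-CoA, was at 79.6, 39.3, 135 and 85.0 CPM in the Tim-4+ libraries and at 105, 35.8, 127 and 67.6 CPM in the Tim-4- libraries. Its level followed the pair, low in pair 784 and high in pair 783 in both subsets. Ehhadh, the bifunctional enzyme, was at 1.83 to 4.82 and 3.12 to 3.87 CPM.

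The acyl-CoA synthetases that activate long-chain fatty acids also gave 0 calls in edgeR, with 1 lower at an unadjusted p under 0.05. The pairs accounted for more of their spread than the subsets did in all 4, as in 69.7% of all genes tested. Acsl1 was at 50.5, 68.6, 51.4 and 30.2 CPM in the Tim-4+ libraries and at 44.0, 66.8, 52.6 and 22.8 CPM in the Tim-4- libraries, highest in pair 784 and lowest in pair 779 in both. Acsl5 was at 127 to 226 and 143 to 229 CPM, highest in pair 784 in each subset. Acsl4, which prefers arachidonate, was at 88.2, 112, 97.6 and 99.8 CPM in the Tim-4+ libraries and at 85.2, 226, 83.6 and 158 CPM in the Tim-4- libraries. The Tim-4- libraries of pairs 784 and 779 stood above the other 6 (log2 difference -0.35, adjusted p = 0.306). Acsl3, which is linked to droplet formation, was at 4.07, 8.76, 4.70 and 5.84 CPM in the Tim-4+ libraries and at 7.37, 13.8, 6.46 and 7.24 CPM in the Tim-4- libraries, lower in each pair (log2 difference -0.57, 95% interval -0.98 to -0.17, adjusted p = 0.0603). DESeq2 with the block called it, at adjusted p = 0.0105, and 2 of 14 alternative settings did in all.

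Both fatty acid binding proteins were higher in Tim-4+ TAMs. Fabp4, the chaperone of adipocytes and macrophages and a classic PPARγ target, stood at 269, 223, 69.8 and 341 CPM in the Tim-4+ libraries and at 78.2, 45.3, 29.8 and 43.5 CPM in the Tim-4- libraries. The libraries overlapped because the Tim-4+ library of pair 783 lay under the Tim-4- library of pair 793, yet the Tim-4+ library was higher in the 4 pairs (4.20-fold, log2 difference 2.07 ± 0.28 (SE), adjusted p = 0.00952). Without pair 784 the difference was 1.99 at adjusted p = 0.0639, and without the block adjusted p was 0.0535. Fabp5, the epidermal-type chaperone, stood at 266, 222, 158 and 263 CPM in the Tim-4+ libraries and at 158, 143, 124 and 171 CPM in the Tim-4- libraries. It was higher in each pair, least so in pair 783 (1.503-fold, log2 difference 0.59 ± 0.11 (SE), adjusted p = 0.0157). Its call was lost without pair 793, 784 or 779, at adjusted p = 0.0603 to 0.0845, without the block, at 0.114, and with total-count scaling, at 0.123.

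Fabp4 is also known from adipocytes and capillary endothelium, so markers of those cells were read beside it. The 8 adipocyte markers summed to 0.238 to 2.21 CPM in the Tim-4+ libraries and 0.0307 to 0.509 CPM in the Tim-4- libraries. Of these markers 4 were at 0 in every library (Cidec, Lep, Adrb3 and Cidea), and Adipoq, the adipocyte hormone adiponectin, did not exceed 0.0200 CPM. Plin1, which coats the droplets of adipocytes, had 85, 52, 12 and 84 counts among the Tim-4+ libraries, and 33, 3, 23 and 1 among the Tim-4- libraries (log2 difference 2.74, adjusted p = 0.137). Retn, which encodes resistin, had 20, 7, 1 and 16 counts against 1, 1, 0 and 0, too few to be tested. Among the Tim-4+ libraries both were lowest in pair 783, as Fabp4 was. The 8 endothelial markers summed to 3.24 to 9.56 CPM and 4.10 to 10.1 CPM, with 1 higher and 0 lower. The part of either cell type in the Fabp4 level was not tested.

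**Figure D2:**
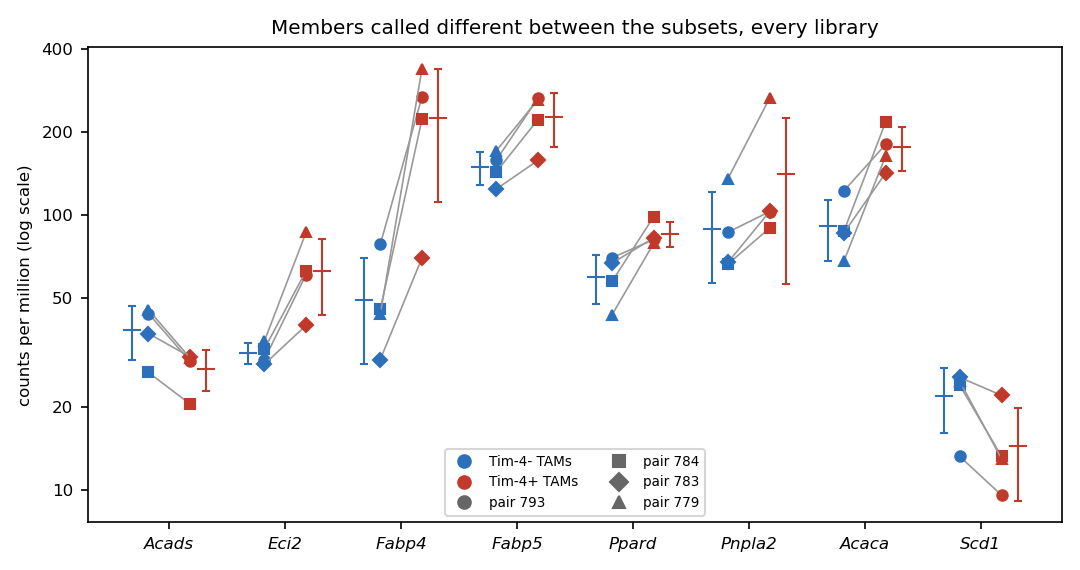
CPM on a log scale for the 8 called members in every library, Tim-4- TAMs (blue) joined to the Tim-4+ TAMs (red) of the same pair, with the mean and SD of 4 libraries beside them. The lines of a gene run the same way in the 4 pairs, and the Tim-4+ library of pair 783 (diamond) is the lowest red point for Eci2, Fabp4, Fabp5 and Acaca.

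Of the 3 PPAR receptors, Ppard alone was present at a moderate level. Ppard, which encodes the widely expressed PPARδ, stood at 81.4, 98.6, 82.5 and 78.9 CPM in the Tim-4+ libraries and at 69.8, 57.3, 66.7 and 43.3 CPM in the Tim-4- libraries. Every Tim-4+ library was above every Tim-4- library (1.46-fold, log2 difference 0.54 ± 0.14 (SE), adjusted p = 0.0337). The call was lost without pair 793, 784 or 779, at adjusted p = 0.0555 to 0.148, without the block, at 0.119, and with total-count scaling, at 0.217.

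Pparg, the receptor of adipocytes and alveolar macrophages, was scarce in both subsets. Its raw counts were 32, 77, 50 and 37 among the Tim-4+ libraries, and 90, 132, 373 and 139 among the Tim-4- libraries, which is 0.672 to 1.54 and 1.35 to 4.75 CPM. It was lower in Tim-4+ TAMs in each pair, most so in pair 783, and the subsets overlapped (log2 difference -1.27, 95% interval -2.19 to -0.35, adjusted p = 0.0631). The call was made in 3 of 14 alternative settings, among them DESeq2 with the block (adjusted p = 0.0127) and no count filter (0.0333).

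Ppara, the receptor of liver and heart that drives oxidation genes, was near the floor. Its raw counts were 6, 8, 13 and 0 among the Tim-4+ libraries, and 11, 21, 13 and 28 among the Tim-4- libraries, and at this depth its interval, -3.23 to 1.16 on the log2 scale, cannot show a difference. Ppargc1a, the coactivator of mitochondrial genes PGC-1α, had 17 to 74 counts in the Tim-4+ libraries and 99 to 151 in the Tim-4- libraries, or 0.354 to 1.35 and 1.26 to 2.32 CPM. It was lower in 3 pairs (log2 difference -1.22, 95% interval -2.32 to -0.12, adjusted p = 0.114), and it was called without pair 783, at -1.69 and adjusted p = 0.0248. DESeq2 with the block called it lower as well, and 3 of 14 alternative settings did in all. Ppargc1b, the related coactivator PGC-1β, was at 9.26, 10.6, 11.6 and 2.58 CPM in the Tim-4+ libraries and at 10.1, 5.14, 8.89 and 2.95 CPM in the Tim-4- libraries. It was low in pair 779 in both subsets and did not differ beyond its spread (adjusted p = 0.452).

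Among 7 genes of synthesis and storage 2 were higher and 1 was lower in Tim-4+ TAMs, and their median log2 difference was -0.05. Plin2, which coats lipid droplets in macrophages, stood at 464, 397, 305 and 786 CPM in the Tim-4+ libraries and at 451, 198, 269 and 539 CPM in the Tim-4- libraries. It was higher in each pair but nearly level in pair 793, and pair 779 was high in both subsets (log2 difference 0.44, 95% interval 0.03 to 0.85, adjusted p = 0.124). Pnpla2, the triglyceride lipase ATGL that opens droplet breakdown, stood at 103, 89.6, 103 and 266 CPM in the Tim-4+ libraries and at 86.5, 66.2, 67.2 and 136 CPM in the Tim-4- libraries. It was higher in each pair and highest in pair 779 in both subsets (1.48-fold, log2 difference 0.57 ± 0.13 (SE), adjusted p = 0.0283). The call was lost without pair 793, 784 or 779, at adjusted p = 0.0507 to 0.102, without the block, at 0.375, and with total-count scaling, at 0.192. Lipe, the hormone-sensitive lipase that acts next, was at 21.7 to 28.0 and 23.0 to 30.0 CPM (log2 difference -0.05, adjusted p = 0.824).

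The 4 synthesis genes did not move as 1 group. Acaca, the acetyl-CoA carboxylase that makes malonyl-CoA, stood at 180.4, 218, 142 and 164 CPM in the Tim-4+ libraries and at 122, 87.2, 86.0 and 67.9 CPM in the Tim-4- libraries. The subsets did not overlap (1.96-fold, log2 difference 0.97 ± 0.15 (SE), adjusted p = 0.00985). Without pair 784 it was 0.85 at adjusted p = 0.0678, and without the block adjusted p was 0.0540. Of its 50-base windows 30.4% also occur in other genes, the pseudogene Gm5182 first among them.

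Fasn, the synthase that uses the product of Acaca, stood at 107, 267, 101 and 112 CPM in the Tim-4+ libraries and at 168, 351, 99.8 and 159 CPM in the Tim-4- libraries. It was highest in pair 784 in both subsets, lower in Tim-4+ TAMs in 3 pairs and level in pair 783 (log2 difference -0.39, 95% interval -0.69 to -0.08, adjusted p = 0.0841). Without pair 783 it was called, at -0.53 and adjusted p = 0.0315, and 2 of 14 alternative settings called it in all. Scd1, a desaturase that makes monounsaturated fatty acids, stood at 9.56, 13.2, 22.1 and 12.96 CPM in the Tim-4+ libraries and at 13.2, 24, 25.6 and 24.8 CPM in the Tim-4- libraries. It was lower in each pair (1.54-fold, log2 difference -0.62 ± 0.16 (SE), adjusted p = 0.0329). The call was lost without pair 793, 784 or 779, at adjusted p = 0.0842 to 0.138, with lane 1 alone, at 0.0618, and without the block, at 0.286. Scd2, its neighbor on chromosome 19 and the more abundant of both per length, stood at 86.3, 106, 310.3 and 71.7 CPM in the Tim-4+ libraries and at 111, 155, 245 and 83.6 CPM in the Tim-4- libraries, high in pair 783 and low in pair 779 in both (adjusted p = 0.409).

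Compared per length, as CPM per kilobase of exon, the members spanned more than 3 orders of magnitude. The length joined the exons of all annotated transcripts and can exceed that of the RNA present. It was 4489 bases for Fabp4, the whole gene, 3567 for Fabp5 and 3512 for Plin2, so the places depend on it. By this measure Plin2 was first in both subsets, at 139 ± 59.6 in the Tim-4+ libraries and 104 ± 45.0 in the Tim-4- libraries (SD, n = 4). In Tim-4+ TAMs Fabp5 (63.7 ± 14.1), Fabp4 (50.3 ± 25.5) and Pnpla2 (46.5 ± 27.9) followed. Plin2 was above Fabp5 in each of the 4 libraries without overlap, whereas the ranges of Fabp5, Fabp4 and Pnpla2 overlapped. In Tim-4- TAMs the next were Acaa2 (43.6 ± 11.4), Fabp5 (41.8 ± 5.65) and Acsl5 (36.6 ± 7.90), and Fabp4 was in place 16 of 39. Among oxidation genes Acadl (36.8 ± 9.13), Acaa2 (28.4 ± 5.74), Etfa (22.2 ± 1.70) and Cpt1a (21.6 ± 5.78) led in Tim-4+ TAMs by this measure. That order too depends on the length, which was 8730 bases for Hadha and 8286 for Echs1 against 2005 for Acadl. Pparg, Ppargc1a and Ppara took the last 3 places in both subsets, at 0.330, 0.119 and 0.0341 in Tim-4+ TAMs, while Ppard stood at 11.4 ± 1.19.

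**Figure D3:**
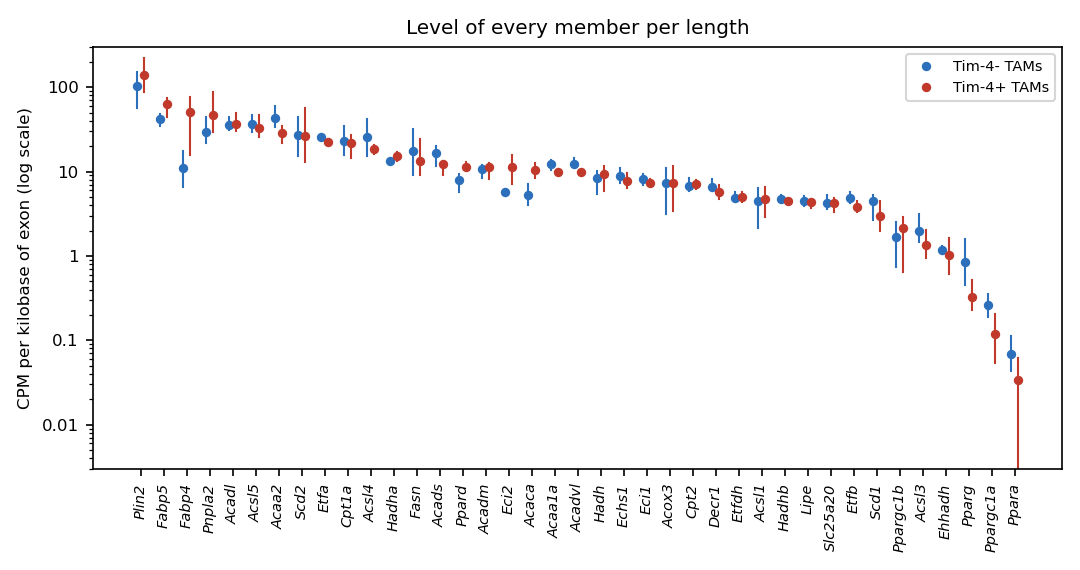
Mean level of each member in CPM per kilobase of exon on a log scale, ordered by the Tim-4+ mean, with lines from the lowest to the highest of 4 libraries; the line of Ppara in Tim-4+ TAMs runs off the axis because 1 library had no count. By this length, taken over all annotated transcripts, Plin2 is the highest and the 3 regulators Pparg, Ppargc1a and Ppara are the lowest in both subsets.

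The spread of each member was split into a share between pairs, a share between subsets and a remainder. With 4 pairs and only 2 subsets the pairs more easily hold the larger share, so all genes are given beside the members. In 24 of 39 members (61.5%) more of the sum of squares of log2 CPM lay between pairs than between subsets. That was so for 69.7% of all genes tested. The median share between pairs was 57.8% over the members and 52.4% over all genes, and the median share between subsets was 19.2% and 19.0%. Acox3 (95.9%), Acsl1 (95.1%), Etfdh (95.1%), Cpt1a (94.3%) and Scd2 (92.7%) had the highest shares between pairs. Acaca (76.8%), Eci2 (72.0%) and Fabp4 (67.7%) had the highest shares between subsets. In 18 members the highest library of both subsets came from the same pair (46.2%, against 45.8% of all genes), and in 24 the lowest did (61.5%, against 46.8%). What differs between the pairs is not given in the labels.

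**Figure D4:**
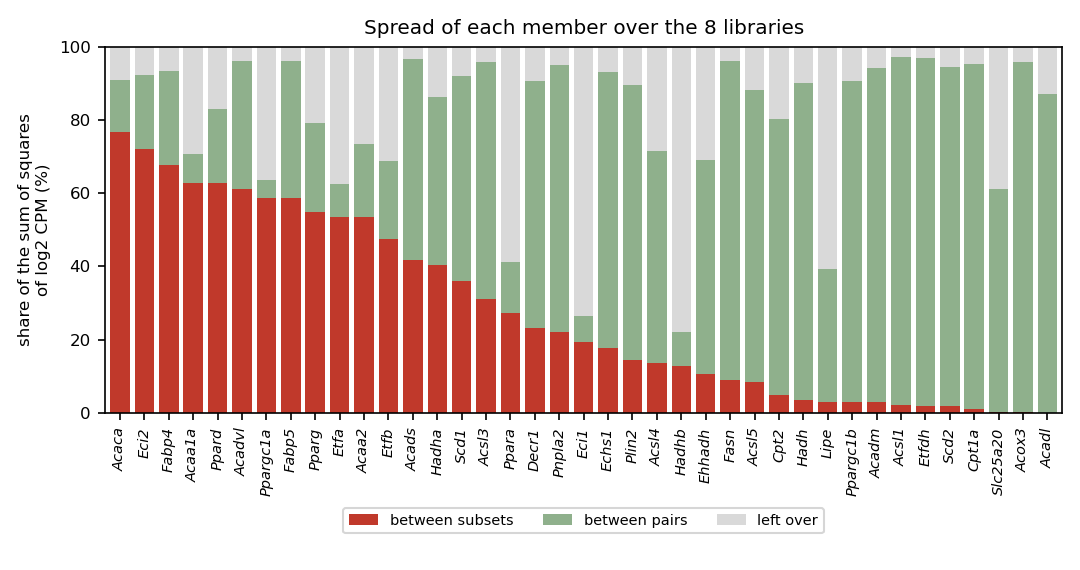
Share of the sum of squares of log2 CPM over 8 libraries that lay between the subsets (red), between the pairs (green) or in neither (grey), for each member in order of the red share. Red exceeds green in 15 members, with Acaca, Eci2 and Fabp4 at the left, and green exceeds red in the other 24.

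A further 132 genes of the same pathways were read from the same fit, and 113 had enough counts. Of these 18 were higher and 7 lower in Tim-4+ TAMs, where 8.97% and 8.43% of all genes tested were. The same shares are the background of the edgeR calls that follow for each list. DESeq2 with the block called more genes, 2194 higher and 2328 lower of 16861 tested. No such share was taken for counts at an unadjusted p under 0.05. Among 15 other genes of mitochondrial oxidation 0 were higher and 1 was lower, the scarce brain-type transferase Cpt1c (0.537 and 1.64 CPM, named after its value was seen), with 2 at an unadjusted p under 0.05 among those higher and 3 among those lower. DESeq2 with the block called 1 higher and 3 lower. Their median log2 difference was -0.03.

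Of 15 tested peroxisomal genes 3 were higher and 0 lower, with 4 and 3 at an unadjusted p under 0.05 (DESeq2 with the block, 3 and 2). Abcd2, a transporter of very-long-chain acyl-CoA, stood at 48.8, 23.0, 63.6 and 124 CPM in the Tim-4+ libraries and at 38.0, 9.95, 41.3 and 41.7 CPM in the Tim-4- libraries (log2 difference 0.94, adjusted p = 0.0251). Phyh, which starts the breakdown of phytanic acid, had a log2 difference of 0.61 (adjusted p = 0.0122) without overlap, and Scp2, a sterol carrier with a thiolase form, one of 0.40 (adjusted p = 0.0391).

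Of 13 tested genes of uptake, activation and binding 3 were higher and 1 lower. Fabp7, the brain-type binding protein, stood at 58.4, 113, 38.8 and 81.4 CPM in the Tim-4+ libraries and at 21.6, 13.4, 13.9 and 11.1 CPM in the Tim-4- libraries, without overlap (log2 difference 2.22, adjusted p = 0.0116). Fabp3, the heart-type protein, was at 6.84 ± 1.20 and 3.45 ± 0.828 CPM (log2 difference 1.002, adjusted p = 0.0326). Cd36, the fatty acid and scavenger receptor, stood at 521, 346, 208 and 464 CPM in the Tim-4+ libraries and at 350.3, 190, 173 and 224 CPM in the Tim-4- libraries (log2 difference 0.69, adjusted p = 0.0229). Acss1, the mitochondrial acetyl-CoA synthetase, was lower in each pair (log2 difference -0.62, adjusted p = 0.0181). The 4 called genes of the binding protein family, Fabp3, Fabp4, Fabp5 and Fabp7, were higher in Tim-4+ TAMs.

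Of 23 tested genes of storage and lipolysis 4 were higher and 0 lower, with 8 and 3 at an unadjusted p under 0.05 (DESeq2 with the block, 5 and 1). Hilpda, a droplet protein that restrains Pnpla2, stood at 143, 90.3, 51.5 and 159.6 CPM in the Tim-4+ libraries and at 67.0, 15.4, 11.2 and 40.05 CPM in the Tim-4- libraries (log2 difference 1.96, adjusted p = 0.00748). Lpl, the lipase that frees fatty acids from lipoproteins, stood at 559, 289.6, 171 and 409 CPM in the Tim-4+ libraries and at 164, 117, 161 and 100.1 CPM in the Tim-4- libraries. The subsets did not overlap, but pair 783 was nearly level (log2 difference 1.31, adjusted p = 0.0387). Gpat3, which takes the first step of triglyceride synthesis, had a log2 difference of 0.63 (adjusted p = 0.0277). Plin5, a droplet protein of oxidative tissue, was the fourth, at 0.423 and 0.0508 CPM (named after its value was seen).

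Of 24 tested genes of synthesis, elongation and desaturation 5 were higher and 4 lower. Acly, which makes the acetyl-CoA that Acaca uses, was at 1305 ± 193 CPM in the Tim-4+ libraries and 731 ± 225 CPM in the Tim-4- libraries, without overlap (log2 difference 0.87, adjusted p = 0.0260). Mlxipl, the glucose-responsive factor ChREBP, was at 446 ± 89.4 and 240.0 ± 97.1 CPM (log2 difference 0.95, adjusted p = 0.0107). Elovl5, an elongase of polyunsaturated chains, had a log2 difference of 0.93 (adjusted p = 0.0116), Hacd4, a dehydratase of elongation, one of 0.63 (adjusted p = 0.0378), and Tecr, the reductase of elongation, was the fifth.

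The 4 genes of this list that were lower did not overlap between the subsets, but the gaps were narrow. The highest Tim-4+ and the lowest Tim-4- library were at 58.28 and 59.51 CPM for Fads1 and 16.42 and 16.97 CPM for Fads3. They were at 10.56 and 11.87 CPM for Fads6 and at 3.12 and 3.685 CPM for Elovl6. In the whole list 5 of 24 tested genes were lower without overlap, where 5.92% of all genes tested were. A call and a lack of overlap rest on the same values. Fads1, a desaturase on the way to arachidonate, stood at 16.9, 28.9, 58.3 and 21.4 CPM in the Tim-4+ libraries and at 59.5, 106, 83.5 and 119 CPM in the Tim-4- libraries (log2 difference -1.68, adjusted p = 0.0180). Fads3 (log2 difference -2.01, adjusted p = 0.0230) and Fads6 (log2 difference -1.995, adjusted p = 0.00561) are further members of the desaturase family. Fads2, of the same family, was not called (log2 difference -1.67, adjusted p = 0.0578, named after its value was seen). In pair 783 it was higher in the Tim-4+ library, at 26.4 against 22.8 CPM. Elovl6, which elongates palmitate, was at 2.32 ± 0.909 and 7.30 ± 4.87 CPM (log2 difference -1.53, adjusted p = 0.0287). The summed mesothelial and epithelial markers were lower in Tim-4+ TAMs as well, as given above. Their part in the level of the 4 lower genes of this list, of Scd1 and of Acads was not tested. Nor was it tested for other genes lower in Tim-4+ TAMs, such as Acss1 above and Angptl4 below.

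Among 15 partners of the PPARs 3 were higher and 0 lower, with 4 and 0 at an unadjusted p under 0.05 (DESeq2 with the block, 4 and 0). Rxrg, which encodes RXRγ, stood at 8.78, 13.7, 11.4 and 5.74 CPM in the Tim-4+ libraries and at 2.04, 1.34, 1.49 and 0.245 CPM in the Tim-4- libraries, without overlap (log2 difference 3.15, adjusted p = 0.00650). Rxra, the main RXR of myeloid cells, was at 205 to 276 and 136 to 291 CPM and was not called. Cebpb, a myeloid and adipogenic factor (log2 difference 0.89, adjusted p = 0.0205), and Ncoa1, a coactivator of nuclear receptors (log2 difference 0.58, adjusted p = 0.0183), were the other two. Of 8 tested further PPAR target genes 0 were higher and 1 was lower, with 1 each way at an unadjusted p under 0.05 (DESeq2 with the block, 1 and 1). It was Angptl4, a secreted inhibitor of Lpl, at 2.27, 2.78, 1.75 and 3.99 CPM in the Tim-4+ libraries and 7.34, 10.1, 3.34 and 17.8 CPM in the Tim-4- libraries (log2 difference -1.67, adjusted p = 0.00840).

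**Figure D5:**
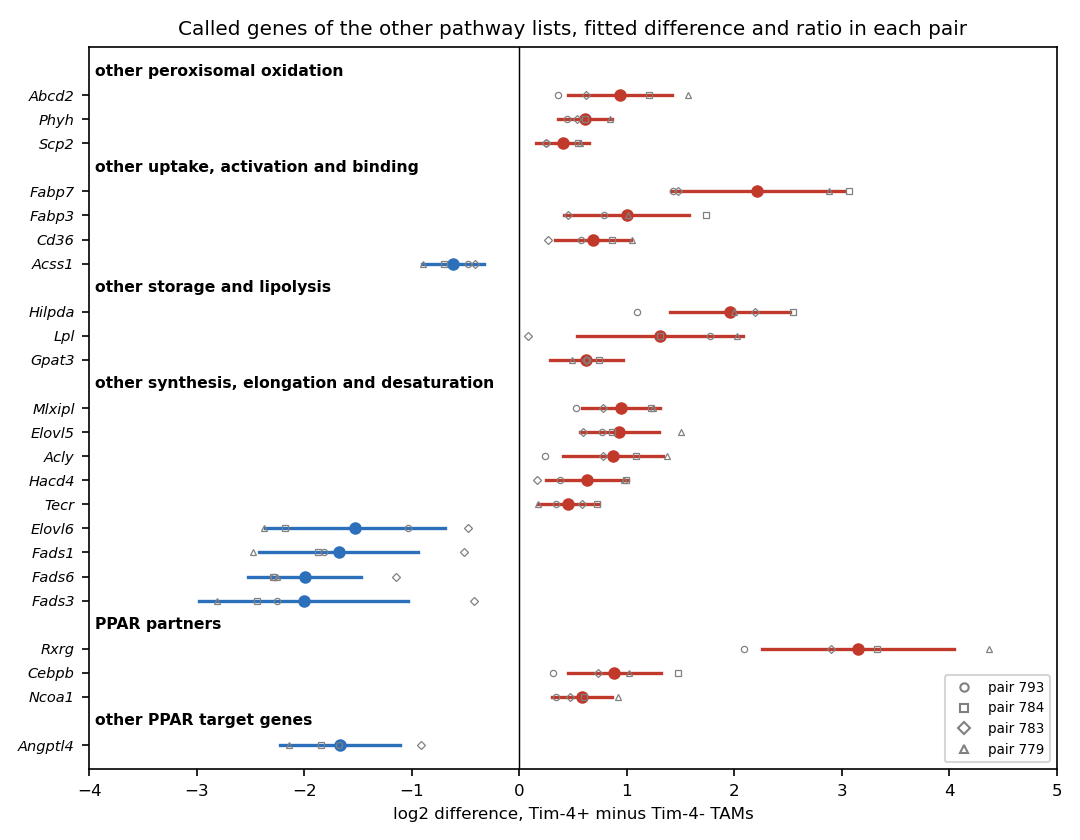
Fitted log2 difference with its 95% interval (filled points) and the ratio in each pair (open symbols) for the called genes of the other pathway lists with a mean of at least 5 CPM in either subset; red is higher and blue lower in Tim-4+ TAMs. Rxrg, Fabp7 and Hilpda lie farthest to the right, and Fads3, Fads6, Fads1, Angptl4 and Elovl6 farthest to the left.

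Reads that fit more than 1 place were set aside by the authors' counting, which lowers genes with near copies. Of the 39 members 13 shared no 50-base window of their transcripts with another GENCODE M21 gene, among them Fabp4, Acads, Pnpla2 and Fasn. A further 19 shared under 10% of their windows, 4 shared 10% to 20% (Hadhb, Acaa1a, Eci2 and Lipe), and 3 shared over 20% (Etfb 44.8%, Acaca 30.4% and Acadvl 26.9%). Windows also counted as shared where another gene overlaps at the same place, as Gm45233 does with Etfb, Dvl2 with Acadvl and 4732471J01Rik with Lipe. Reads there need not fit more than 1 place, so the shares of these genes do not measure near copies. The neighbors Scd1 and Scd2 shared 4.56% and 3.97%. Fabp5 shared 5.48%, and the pseudogene Gm6166 shared more of its windows than any other gene.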

How the data were processed

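RNA of 8 libraries, 4 of Tim-4+ TAMs and 4 of Tim-4- TAMs, was sequenced in 2 lanes each, and the files the authors deposited hold, lane by lane, unnormalized whole-number counts of reads on each gene. The submitters' processing notes name FastQC 0.11.3, TopHat2 2.0.13, Cufflinks and Cuffdiff 2.2.1 with GRCm38, whereas the paper's methods name a human build; the read counter behind the counts is not given in the sources used here. The lanes hold the summary lines of a counter, in which reads that aligned to several places made up 9.11% to 24.5% of a lane, and these lines were left out of all totals. Of the 16 lanes 15 are listed by Ensembl identifier. The other, lane 1 of the Tim-4- library of pair 793, is listed by symbol and was joined by row order, with 96.9% of comparable symbols and 39 of 39 members matching.

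Lanes were summed, so that 1 library was 1 replicate. Names, coordinates and exon lengths came from GENCODE M21 on GRCm38 (98.4% of identifiers named), promoter windows from RefSeq on GRCm38.p6. The 16861 genes that reached 10 counts in 4 or more libraries were tested in R 4.3.3 with edgeR 4.0.16 (TMM factors, robust quasi-likelihood fit, pair number as a block), with Benjamini-Hochberg adjustment over all of them, and called at an adjusted p under 0.05. The standard error is the log2 difference divided by the square root of F, and intervals are 95%. The pair numbers come from the sample labels. Deviations from the subset means correlated across genes at 0.277 to 0.498 within a pair and at -0.368 to 0.0658 between pairs, so the numbers were taken to pair the libraries. CPM values are TMM-scaled. Levels between genes are CPM per kilobase of the joined exons of all GENCODE transcripts of a gene. They were used in place of TPM, which carries no TMM scaling. Log2 CPM for shares of the sum of squares had a prior count of 2. Floors cover counting error only.

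The members, the lists of further pathway genes and the marker lists were chosen with earlier results of these data known. All 39 members are named. From each further list those called and averaging 5 CPM or more in either subset are named, up to 4 with the largest rise and 4 with the largest fall. Cpt1c, Plin5, Tecr, Fads2, Rxra and the adipocyte markers Plin1 and Retn fall outside this rule and were named after their values were seen. The alternatives tried were scaling by DESeq2 size factors, by library totals or by TMM factors that leave out the mitochondrial genome, no pair block, DESeq2 1.42.0 with the block, other count filters, each lane alone, each pair left out, a 2-fold minimum and, added after seeing the data, the symbol-listed lane left out. Protein sequences were not used here.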

Additional observations from a re-analysis of the deposited data

Results flagged for a closer look

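In each subset of 4 libraries a library was singled out where its gap to the nearest of the others, as a share of the whole range, was above Dixon's critical value for 4 values at 95%. Of 78 groups of member values 7 had such a library, and chance alone singles out about 1 group in 20. In Tim-4+ TAMs, Acads was at 20.5 CPM in pair 784 against 29.3 to 30.4 CPM in the other libraries. Fasn was at 267 CPM in the same library against 101 to 112 CPM. Pnpla2 was at 266 CPM in pair 779 against 89.6 to 103 CPM, and Scd2 at 310 CPM in pair 783 against 71.7 to 106 CPM. In Tim-4- TAMs, Acsl3 was at 13.8 CPM in pair 784 against 6.46 to 7.37 CPM, Decr1 at 31.5 CPM in pair 783 against 23.1 to 24.5 CPM, and Scd1 at 13.2 CPM in pair 793 against 24 to 25.6 CPM.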

How the results depend on the processing

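With DESeq2 size factors, TMM without mitochondrial genome genes or the symbol-listed lane left out, all 39 members kept their direction and side of the threshold. With no replicate block, that is without the pairing, edgeR called 0 members higher and 0 lower (0 and 0 of mitochondrial oxidation, 0 and 0 of synthesis and storage), with 5 and 6 members at an unadjusted p under 0.05, while 147 and 85 of all genes were called. With total counts per library the median of all genes moved to -0.359, and 789 of all genes were called higher and 4903 lower. The share of calls that were higher fell from 51.6% to 13.9%. Of the members 3 were higher and 18 lower (9 lower of mitochondrial oxidation, 1 higher and 4 lower of synthesis and storage). The log2 differences of 10 uncalled members then turned: Cpt2 -0.282, Slc25a20 -0.334, Acadl -0.348, Acadm -0.277, Hadha -0.178, Hadh -0.215, Etfdh -0.318, Acox3 -0.316, Acsl1 -0.206 and Ppargc1b -0.0737. DESeq2 with the block called the same 6 members higher and 7 lower (3 of mitochondrial oxidation), where 2194 and 2328 of the 16861 genes tested were called. Lane 1 alone gave 1 member lower (0 of synthesis and storage), and lane 2 alone gave 4 lower (3 of mitochondrial oxidation). A 2-fold minimum left 1 higher and 0 lower.

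Without 1 pair, 0 to 6 members were higher and 0 to 5 lower. Of mitochondrial oxidation 0 to 1 were higher and 0 to 2 lower, and of synthesis and storage 0 to 2 were higher and 0 to 2 lower. Without pair 784 no member was called by edgeR (6 higher and 5 lower at an unadjusted p under 0.05) and 78 genes were higher and 54 lower of all tested, and without pair 783 the 8 called members stayed called. Other settings turned the sign of uncalled members near 0: Slc25a20 (-0.0187) and Etfdh (-0.0128) with lane 2 alone, and Acadl with lane 1 alone (-0.0443), no count filter (-0.00615) and 10 counts in all libraries (-0.00217). Without 1 pair, the sign turned for Cpt1a (-0.151 to 0.00924), Cpt2 (-0.00111 to 0.121), Slc25a20 (-0.093 to 0.151), Acadl (-0.0556 to 0.0986), Hadhb (-0.13 to 0.00993), Acox3 (-0.06 to 0.191) and Lipe (-0.166 to 0.0538), none of them called. Ppara had too few counts for a value with either lane alone, without pair 783 or with 10 counts in all libraries. The causes were not tested. Ppara, with 0 to 28 counts, is limited by depth.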
